A study of Mus musculus with 6 samples.

Results

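The NF-κB genes examined here are the 7 genes Nfkb1, Nfkb2, Rel, Rela, Relb, Nfkbia and Tnfaip3, taken by name from 22208 protein-coding genes of the mouse annotation GENCODE M1, which is on the genome build mm9 (NCBIM37). For each gene the window was the gene body plus 20 kb on each side, and the listed intervals of H3K27ac, H3K4me3 and Pax5 in it were placed at the promoter, in an exon-bearing or intronic part of the gene body, or in a flank. H3K27ac (acetylation of lysine 27 of histone H3) marks active promoters and enhancers, H3K4me3 (trimethylation of lysine 4) marks promoters, and Pax5 is the transcription factor that commits precursors to the B cell lineage.

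NF-κB is a family of dimeric transcription factors that share the Rel homology domain. In resting cells the dimers are held in the cytoplasm by IκB proteins, and signals from receptors lead IκB kinases to mark IκB for destruction, so that the dimers enter the nucleus and bind κB sites. Nfkb1 and Nfkb2 encode precursors that are processed to p50 and p52, Rel, Rela and Relb encode the subunits with transactivation domains, Nfkbia encodes the inhibitor IκBα, and Tnfaip3 encodes A20, which edits ubiquitin chains and damps the signal. In precursor B cells NF-κB is best known for binding the intronic enhancer of the kappa light chain locus, the element in which the factor was found, and several of the 7 genes are known targets of NF-κB themselves.

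The data were ChIP-seq interval lists from pre-B cells of RAG-/- µ+ C57BL/6 mice, in which a rearranged IgM transgene is present and RAG is lacking, aged 6 to 14 weeks and of both sexes. RAG-/- mice do not rearrange their own immunoglobulin genes, so the transgene lets B cell precursors reach the pre-B stage with unrearranged light chain loci, and every library shares this genotype. Of 6 samples, 3 were immunoprecipitations with 1 library each (H3K27ac, H3K4me3 and Pax5), and 3 were inputs, for which no interval list was analysed here. With 1 library per list there was no replicate spread, so the values below are descriptions of these libraries with no test, and read depth was unknown because the lists hold no read counts.

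The lists differed in grain. The H3K27ac list held 69345 intervals with a median width of 428 bp and scores of 3.06 to 330, and the Pax5 list held 15445 intervals with a median width of 965 bp and scores of 87.9 to 3214. H3K4me3 was deposited as bins of 25 bp with no score, and bins no more than 100 bp apart gave 17979 regions once joined, of which the median spanned 1025 bp. Scores have no stated scale and were compared only within a list. The labelled cell type was checked with marker genes. Of 8 pre-B markers, 8 carried H3K27ac, 7 H3K4me3 (all but Igll1) and 8 Pax5 at the promoter. Pax5 was at none of the promoters of 4 T cell, 5 myeloid and 3 erythroid markers or of the liver gene Alb, while H3K27ac was at 1 (Lck, score 34.9), 4 (scores 8.01 to 14.1) and 2 (Hbb-b1, 33.4, and Epor, 9.75) of the first 3 sets. H3K4me3 was at 1 T cell (Lck, 1100 bp), 3 myeloid (75 to 775 bp) and 1 erythroid (Epor, 1050 bp) promoter. The part of other cells in the values below was not tested.

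The promoter sequences are shown first because the κB consensus, the degenerate 10-base sequence bound by NF-κB dimers, occurred in nearly all of them. Both strands were searched in the 300 bp from 250 bases before to 50 bases after the reference start. The consensus matched in 6 of the 7 promoters (85.7%), against 4.88% of 22208 promoters and 5.27% of the 11797 whose gene carried H3K4me3. Rela was the gene without a match in these 300 bp. Its promoter Pax5 interval (1443 bp) held 1 match outside them and its downstream Pax5 interval (1441 bp) held 2, counted on both strands. The share of whole Pax5 intervals with a match was not computed, so these matches have no comparison. The 13 matches, counted on both strands, fell in 9 separate stretches, since the consensus is nearly palindromic and matches overlap. Below are the 150 bases before the start of Nfkb2 (chr19:46379077-46379226, plus strand), Rel (chr11:23670971-23671120, minus strand), Relb (chr7:20214788-20214937, minus strand), Nfkbia (chr12:56593635-56593784, minus strand) and, as the contrast, Rela (chr19:5637333-5637482, plus strand). For Nfkb1, whose match lies inside exon 1 (chr3:135354461-135354490, minus strand), and for Tnfaip3 (chr10:18735322-18735351 and chr10:18735209-18735238, minus strand), 30 bases round each match are given. All are read 5′ to 3′ along the gene on mm9, and capitals mark bases of a κB consensus match.
Nfkb2: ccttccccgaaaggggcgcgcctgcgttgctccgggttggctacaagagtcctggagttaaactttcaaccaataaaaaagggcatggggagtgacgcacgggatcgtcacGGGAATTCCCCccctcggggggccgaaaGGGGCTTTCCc
Rel: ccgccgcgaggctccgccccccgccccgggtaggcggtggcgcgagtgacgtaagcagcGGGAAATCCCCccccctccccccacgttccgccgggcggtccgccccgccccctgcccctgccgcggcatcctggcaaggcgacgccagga
Relb: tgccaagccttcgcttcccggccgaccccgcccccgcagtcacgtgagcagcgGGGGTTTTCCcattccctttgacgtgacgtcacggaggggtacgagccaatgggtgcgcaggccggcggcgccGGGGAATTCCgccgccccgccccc
Nfkbia: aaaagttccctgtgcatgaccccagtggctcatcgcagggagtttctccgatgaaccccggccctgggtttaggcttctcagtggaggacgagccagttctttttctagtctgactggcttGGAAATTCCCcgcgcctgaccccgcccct
Rela: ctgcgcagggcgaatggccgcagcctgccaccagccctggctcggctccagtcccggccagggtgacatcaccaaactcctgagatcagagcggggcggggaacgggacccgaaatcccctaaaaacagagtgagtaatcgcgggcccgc
Nfkb1, in exon 1: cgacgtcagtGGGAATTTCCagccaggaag
Tnfaip3, farther from the start: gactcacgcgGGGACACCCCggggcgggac
Tnfaip3, nearer to the start: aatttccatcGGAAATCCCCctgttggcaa

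Counted along the gene, with the start as position 1 and the base before it as -1, the matches began at -39 and -11 in Nfkb2, -91 in Rel, -97 and -24 in Relb, -29 in Nfkbia, -125 and -12 in Tnfaip3, and 31 in Nfkb1. All 9 stretches lay wholly inside an H3K4me3 region, 7 of them (77.8%) inside a Pax5 interval and 3 (33.3%) inside an H3K27ac interval. Among the 645 such stretches in promoters of genes with H3K4me3, the shares were 82.6%, 55.0% and 41.7%. For H3K4me3 this base is unlike the 7 genes. All 7 had a region over the reference start, near which the stretches lay. The base needed only a region within 1000 bp of any annotated start, so 9 of 9 against 82.6% cannot be read as an excess. For Pax5 this base is also unlike the 7 genes, since 70.1% of genes with H3K4me3 had Pax5 at the promoter and all 7 did. The share among genes with promoter Pax5 was not tested, so 77.8% against 55.0% cannot be read as an excess. Among the 9, the stretches outside Pax5 were both those of Relb, and the stretches inside H3K27ac were those of Nfkb2 and Nfkbia. The other stretches of Nfkb1, Rel, Relb and Tnfaip3 fell in or at the edge of a gap between H3K27ac intervals next to the start. A match is a run of letters and not a measured binding of NF-κB, for which no library was analysed here.

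The promoters were GC-rich. Over the 1000 bp round the start, GC content ran from 60.4% in Tnfaip3 to 69.9% in Nfkb1, against a median of 55.0% over all genes, and the ratio of observed to expected CpG ran from 0.66 in Nfkb2 to 0.97 in Nfkb1, against a median of 0.56. The part of base composition in the share of promoters with a match was not tested.

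All 3 lists were present at the promoter, that is within 1000 bp of an annotated transcript start, in 7 of the 7 genes. Over all protein-coding genes 49.1% carried H3K27ac there, 53.1% H3K4me3, 38.2% Pax5 and 35.0% all 3. Among the 11797 genes with H3K4me3 at the promoter, Pax5 was there in 70.1%, which is the nearer comparison for genes that all carry the mark. A window with any Pax5 interval was found in 58.3% of all genes and in 7 of the 7. The 7 genes held 66 H3K27ac intervals, 17 H3K4me3 regions and 19 Pax5 intervals in all, and the maps of the windows show where they lie. The median number per window was 8, 2 and 2 in the 7 genes. It was 2, 1 and 1 over all protein-coding genes, and 8, 2 and 2 over 44 other pathway genes described below.

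**Figure D1:**
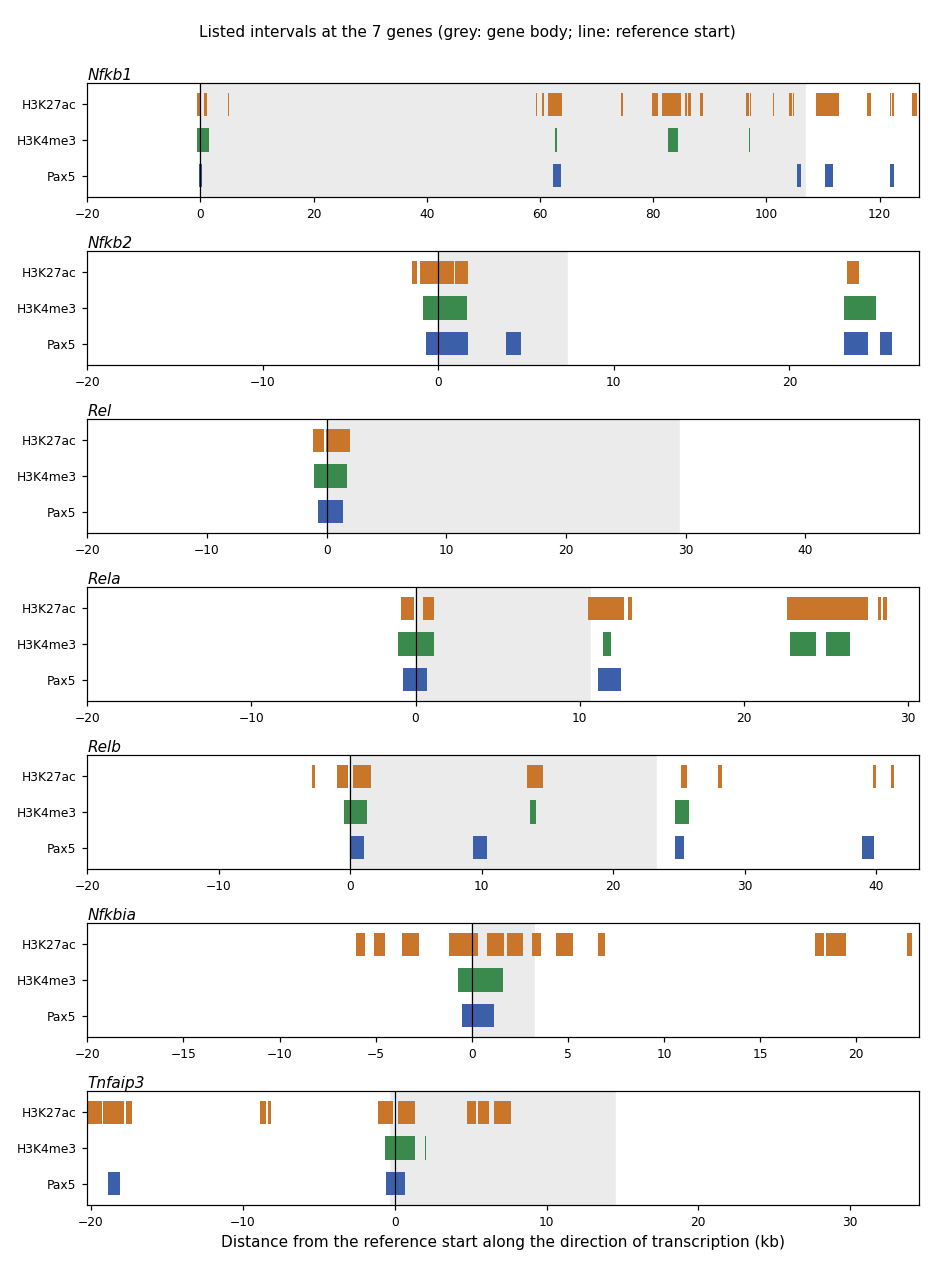
Listed intervals in the window of each of the 7 genes, with distance from the reference start in kb along the direction of transcription on the horizontal axis and 1 row for each list (H3K27ac orange, H3K4me3 green, Pax5 blue). Grey marks the gene body, and every gene has all 3 lists within 1000 bp of the start, while Rel has no interval elsewhere in its window.

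By position, 21 of the 66 H3K27ac intervals lay at a promoter, 6 over an exon farther into the gene, 10 wholly in an intron and 29 in a flank. Of the 17 H3K4me3 regions, 9 lay at a promoter, 1 over another exon, 2 in an intron and 5 in a flank. Of the 19 Pax5 intervals, 7 lay at a promoter, 3 over another exon, 1 in an intron and 8 in a flank. Each gene thus had exactly 1 Pax5 interval at its promoter. Of the promoter intervals, 14 of the 21 for H3K27ac, 7 of the 9 for H3K4me3 and all 7 for Pax5 were at the reference start. The rest were at other starts of Nfkb1 and, for H3K27ac, also of Tnfaip3. Flank intervals are not all the gene's own, since 6 of the H3K27ac, 3 of the H3K4me3 and 2 of the Pax5 intervals lay at the promoter of a neighbour. Farther than 1000 bp from any annotated start lay 59.1% of the H3K27ac, 29.4% of the H3K4me3 and 52.6% of the Pax5 intervals. Over the whole lists these shares were 70.6%, 30.7% and 45.6%.

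**Figure D2:**
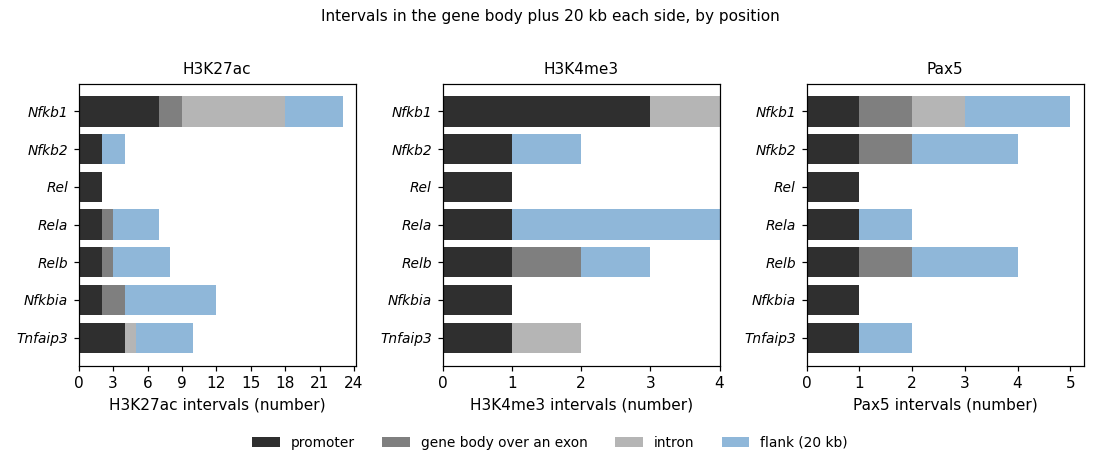
Number of H3K27ac, H3K4me3 and Pax5 intervals in each gene's window (horizontal axis), stacked by position: promoter, gene body over an exon, intron and flank. Nfkb1, with the longest window, had 23 H3K27ac intervals, and Rel and Nfkbia had 1 Pax5 interval each, both at the promoter.

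The genes differed in how high their promoter intervals stood in each list. The highest H3K27ac score at the promoter was 139.5 for Rel, 128.0 for Nfkb2, 99.2 for Rela, 91.9 for Nfkbia, 69.3 for Tnfaip3, 53.5 for Nfkb1 and 49.7 for Relb. All of them exceeded the median of 31.8 over the 10910 genes with such an interval. For Nfkb1 the 53.5 lay at other starts, 83.2 kb into the gene, and the highest score at its reference start was 32.7. The widest H3K4me3 region was 2750 bp in Rel, 2500 bp in Nfkb2, 2350 bp in Nfkbia, 2225 bp in Rela, 2000 bp in Tnfaip3, 1975 bp in Nfkb1 and 1775 bp in Relb, again all above the median of 1475 bp over genes with a region.

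Pax5 gave another order. Its promoter score was 1005.6 for Nfkb2, 669 for Rel, 557 for Nfkbia, 472 for Relb, 216 for Tnfaip3, 150 for Nfkb1 and 119 for Rela. The median over the 8476 genes with Pax5 at the promoter was 269, so 4 genes stood above it and 3 below. Rela stood high in H3K27ac score, at percentile 92.7 of genes with an interval, and low in Pax5 score, at percentile 11.7. It was not low in Pax5 coverage. Its interval covered 72.1% of the 1000 bp either side of the reference start. That share was at percentile 93.0 of all genes, most of which had no Pax5 there. Nfkb2 and Rel were high in all 3 lists, at percentile 96.7 and 97.6 for H3K27ac, 90.7 and 93.8 for H3K4me3 width, and 93.7 and 85.7 for Pax5.

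**Figure D3:**
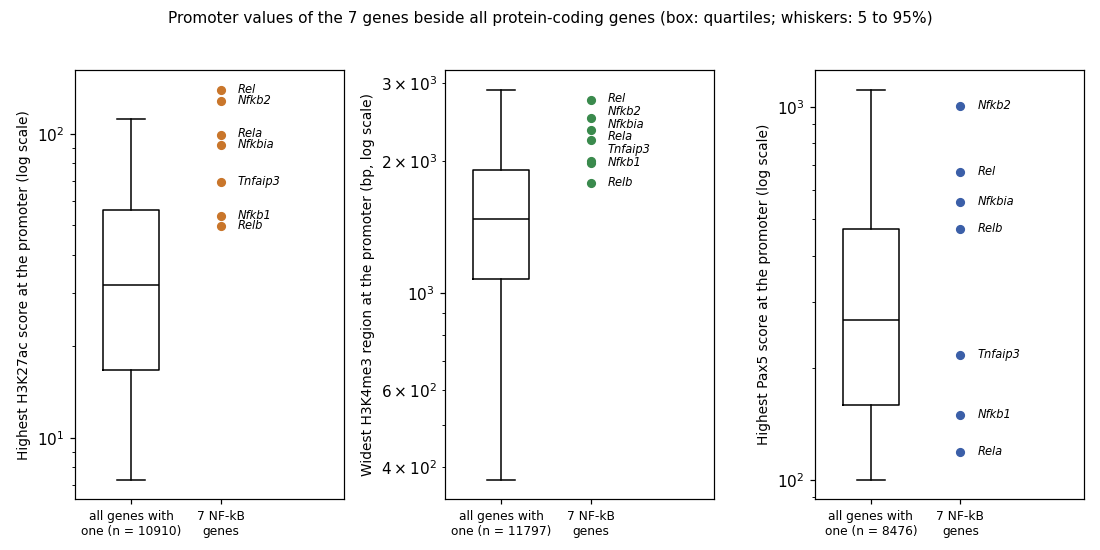
Highest H3K27ac score, widest H3K4me3 region (bp) and highest Pax5 score at the promoter, each on a log scale, for all protein-coding genes with an interval there (box: median and quartiles; whiskers: 5 to 95%) and for the 7 genes (points). All 7 points lie above the median for H3K27ac and H3K4me3, while Tnfaip3, Nfkb1 and Rela lie below it for Pax5. The H3K27ac point of Nfkb1 is an interval at other starts, 83.2 kb into the gene.

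The reference start itself was inside a Pax5 interval in 6 of the 7 genes, against 33.0% of all genes and 61.4% of the 44 other pathway genes described below. A start inside an interval requires Pax5 at the promoter, which all 7 genes have, so genes with promoter Pax5 are the nearer comparison. Of 8476 such genes 7321 had the start inside, and of 33 such pathway genes 27 did. In Relb, the exception among the 7, the Pax5 interval (chr7:20213734-20214759) lay wholly downstream and ended 28 bp from the start, over exon 1 and intron 1. H3K27ac lay on both sides of the start but not over it in 4 genes (Nfkb1, Rela, Relb and Tnfaip3), against 16.1% of all genes, 29.5% of those with H3K4me3 at the promoter and 40.9% of the other pathway genes. The gap opened 145 bp before and closed 659 bp after the start in Nfkb1, 100 bp before and 484 bp after in Rela, 137 and 206 bp in Relb, and 120 and 233 bp in Tnfaip3. Pax5 covered the start in 3 of these 4 genes, and in Rela and Tnfaip3 its interval spanned the whole gap.

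Nfkb1 encodes the p105 precursor of p50 and lies on chr3:135247619-135354511 on the minus strand, with 8 annotated starts in 107 kb. At the reference start it had H3K27ac intervals scoring 32.7 upstream and 21.9 in intron 1, an H3K4me3 region of 1975 bp and a Pax5 interval scoring 150 (chr3:135354285-135354832). The strongest H3K27ac of the gene was not there. It lay 83.2 kb into the gene over exons 13 and 14 (chr3:135269566-135272980, 3415 bp, score 53.5), at starts of the shorter transcripts Nfkb1-003 and Nfkb1-005, together with an H3K4me3 region of 1800 bp. No Pax5 interval overlapped it. The starts 23.7 kb into the gene, used by 3 protein-coding transcripts, had no interval of any list within 1000 bp. At the innermost start, 97.1 kb in, lay an H3K4me3 region of 275 bp with low H3K27ac. Exons are numbered along the transcript of the reference start.

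Away from the starts, Nfkb1 combined all 3 lists at 1 place, in intron 6, where an H3K27ac interval of 2478 bp (score 22.0) held a Pax5 interval (chr3:135290870-135292249, score 214) and an H3K4me3 region of 250 bp. A further Pax5 interval over the last exon, exon 25 (chr3:135248367-135249043, score 114), met neither mark. The highest Pax5 score of the window was in the downstream flank, at chr3:135242802-135244157 (score 354), inside an H3K27ac interval of 4162 bp (score 48.4) that began 1866 bp past the gene end and carried no H3K4me3. The central 120 bases of that Pax5 interval (chr3:135243420-135243539, plus strand) are shown because it scored above the promoter of the gene. The remaining H3K27ac intervals of the window scored 3.62 to 12.1, and the remaining Pax5 interval (score 212) lay inside the neighbour Manba over H3K27ac. The 120 bases hold neither the κB consensus nor GCNTGAC, a short core used here for the Pax5 motif.
Nfkb1, downstream: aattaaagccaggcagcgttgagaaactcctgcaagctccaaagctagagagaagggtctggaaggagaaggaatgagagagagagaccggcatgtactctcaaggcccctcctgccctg

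**Figure D4:**
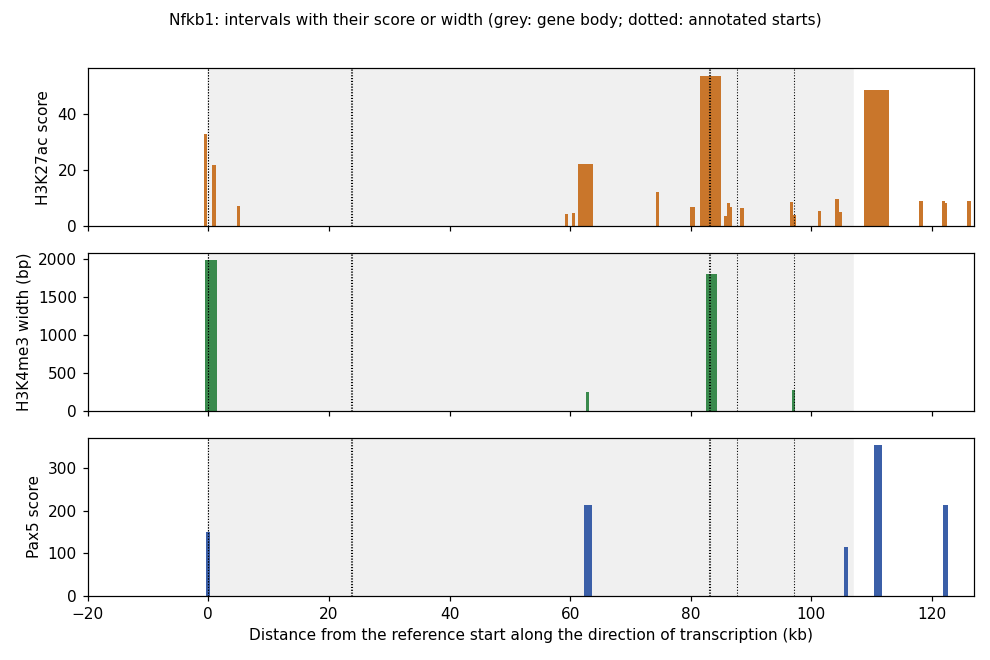
Nfkb1 window with H3K27ac score, H3K4me3 width (bp) and Pax5 score as bar heights, against distance from the reference start in kb; grey is the gene body and dotted lines are annotated starts, and bars under 0.5 kb are widened to be visible. The highest H3K27ac bar (53.5) stands 83.2 kb into the gene with a wide H3K4me3 region and no Pax5, and the highest Pax5 bar (354) stands past the gene end.

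Nfkb2, which encodes the p100 precursor of p52 and acts in the noncanonical branch of the pathway, lies on chr19:46379227-46386580 on the plus strand. Its promoter Pax5 interval (chr19:46378501-46380944, 2444 bp, score 1005.6) ranked 645 of 15445 and covered 86.3% of the promoter. Around it lay H3K27ac intervals scoring 128.0 and 60.0 and the H3K4me3 region of 2500 bp. An H3K27ac interval scoring 6.29 lay just upstream. A much lower Pax5 interval (score 110) lay over exons 12 to 14 without either mark. The flank held 2 more Pax5 intervals (scores 182 and 170), the first of them at the shared promoter region of Fbxl15 and Psd, where H3K27ac (25.8) and H3K4me3 (1800 bp) were also listed.

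Rel encodes c-Rel, a subunit used mainly in lymphoid cells, and lies on chr11:23641514-23670970 on the minus strand. It was the gene with the highest H3K27ac score and the widest H3K4me3 region of the 7, and the Pax5 interval across its start (chr11:23669624-23671730) scored 669. Its window of 69.5 kb held nothing else. The rest of the 29.5 kb gene and both flanks were without an interval of any list.

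Rela encodes p65, the transactivating partner of p50 in the classical dimer, and lies on chr19:5637483-5648130 on the plus strand. At its promoter H3K27ac scored 99.2 upstream and 52.2 downstream of the start, and the Pax5 interval (chr19:5636720-5638162) scored 119, the lowest of the 7. A second place with all 3 lists lay at the 3′ end of the gene, with H3K27ac over exon 11 and beyond (score 41.8), H3K4me3 of 500 bp, and a Pax5 interval that began 442 bp past the gene end (chr19:5648572-5650012, score 147). This second Pax5 score was above that of the promoter. Farther downstream, an H3K27ac interval of 4990 bp (score 41.0) and H3K4me3 regions of 1600 and 1450 bp lay at Sipa1 with no Pax5, and the other H3K27ac intervals, of which 2 were at the promoter of Pcnxl3, scored 5.93 to 6.66.

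Relb encodes a subunit that pairs mainly with p52, and lies on chr7:20191566-20214787 on the minus strand. H3K27ac at its promoter scored 49.7 downstream and 36.2 upstream of the start, and Pax5 scored 472. Within the gene the marks and Pax5 lay apart, with H3K27ac (15.9) and H3K4me3 (475 bp) over exon 7 and Pax5 (162) over exon 4, where neither mark was listed. In the downstream flank a Pax5 interval scoring 455, close to the value of the promoter, lay at the start of the neighbour Clasrp with H3K27ac (27.2) and H3K4me3 (1050 bp). The other H3K27ac intervals of the flanks, among them that at the promoter of Gm17375, scored 4.59 to 8.16. Another Pax5 interval inside Clasrp (chr7:20174959-20175844, score 194) held 2 matches to GCNTGAC, the most of the 19 in their central 300 bp. The 120 bases placed round the match nearer to its midpoint (chr7:20175387-20175506, plus strand) are shown with that match in capitals.
Relb, downstream in Clasrp: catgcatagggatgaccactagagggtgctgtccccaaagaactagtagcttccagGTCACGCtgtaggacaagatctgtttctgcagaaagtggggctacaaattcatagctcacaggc

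Nfkbia encodes IκBα, which binds the dimers and is resynthesised when they are active, and lies on chr12:56590398-56593634 on the minus strand. In its short gene of 3.24 kb the promoter intervals of H3K4me3 (2350 bp) and Pax5 (chr12:56592464-56594146, score 557) reached past exon 1, and H3K27ac scored 91.9 over the start and 48.4 over exons 2 and 3. The window was the densest of the 7 in H3K27ac, with 12 intervals or 27.8 per 100 kb (percentile 97.1 of all genes). The 10 outside the promoter were low, with scores of 4.24 to 11.4, and 2 of them lay over exons farther into the gene and 8 in the flanks on both sides. None of these 10 met H3K4me3 or Pax5, and the Pax5 interval at the promoter was the only one of the window.

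Tnfaip3 encodes A20 and lies on chr10:18720716-18735463 on the minus strand. At its promoter H3K27ac scored 69.3 and 52.2 on the downstream and upstream side of the start, and the Pax5 interval (chr10:18734525-18735761) scored 216. The upstream flank held 5 H3K27ac intervals, 3 of them in a group 17.5 to 19.9 kb from the start. The highest of the group (score 18.8) overlapped a Pax5 interval (chr10:18753317-18754106, score 120) without H3K4me3, and the others of the flank scored 4.24 to 11.4. Inside the gene, H3K27ac intervals scoring 7.05 to 10.6 lay 5.08 to 7.11 kb from the start, and an H3K4me3 region of 75 bp lay in intron 1. The H3K27ac intervals at 5.87 and 7.11 kb were counted at a promoter, through the start of the transcript Tnfaip3-006 6.565 kb in. No interval lay in the downstream flank.

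Pax5 was thus in the gene body outside the promoter in 3 of the 7 genes (Nfkb1, Nfkb2 and Relb), against 11.0% of all genes and 7 of the 44 other pathway genes (15.9%), and the gene body of Nfkb1 is long. When Pax5 intervals in the lower-scoring 50% were left out, this held for 1 gene, Nfkb1 with its interval in intron 6. Of the 19 Pax5 intervals, 15 overlapped H3K27ac (78.9%), which is close to the 79.3% of the whole Pax5 list. Of the 17 H3K4me3 regions, 16 overlapped H3K27ac (94.1%, against 79.7% of that list) and 11 overlapped Pax5 (64.7%, against 52.9%). The core GCNTGAC was in the central 300 bp of 4 of the 19 Pax5 intervals (21.1%), against 18.4% of the Pax5 list and 9.80% of H3K27ac intervals without Pax5. In the 300 bp promoters it was found in Nfkbia alone, against 10.2% of all promoters.

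The other genes of the pathway were taken from a list of 44 that holds receptors, adaptors and ligases, kinases, further inhibitors, and deubiquitinases with the partners of A20. At the promoter 44 of them carried H3K4me3, 42 H3K27ac, 33 Pax5 (75.0%) and 32 all 3 lists (72.7%). Among all genes with H3K4me3 at the promoter, 70.1% had Pax5 there, which is close to the 75.0%. By group, Pax5 was at the promoter in 4 of 9 receptors, 14 of 18 adaptors and ligases, 6 of 7 kinases, 4 of 5 inhibitors and 5 of 5 deubiquitinases and A20 partners. Median promoter values were lower than those of the 7 genes, at 47.8 against 91.9 for H3K27ac score, 1550 against 2225 bp for H3K4me3 width and 278 against 472 for Pax5 score. Over all genes with an interval these medians were 31.8, 1475 bp and 269. The κB consensus matched in 9 of the 44 promoters (20.5%), those of Bcl3, Birc3, Cd40, Cyld, Map3k7, Nfkbie, Nfkbiz, Tnip1 and Traf3.

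**Figure D5:**
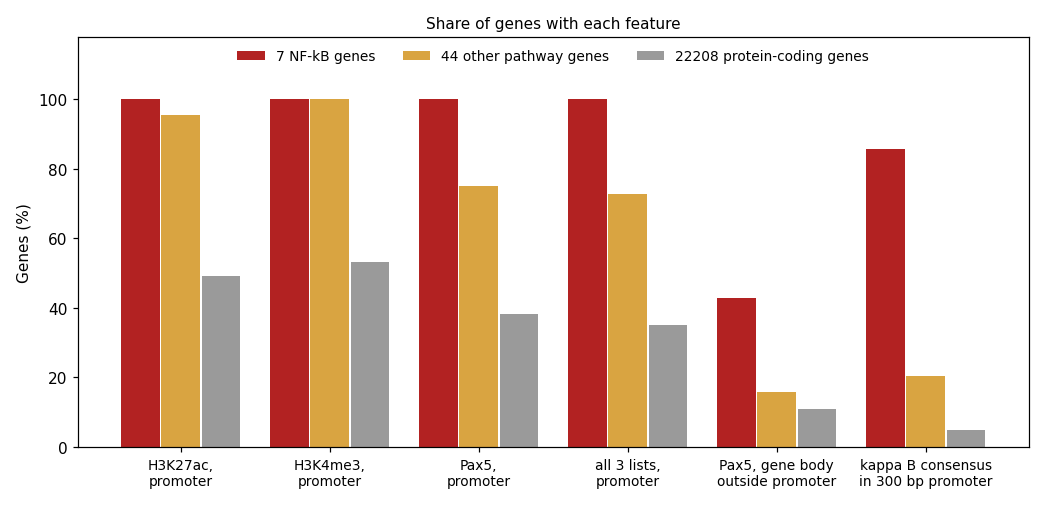
Share of genes (%) with each feature in the 7 NF-κB genes (red), 44 other pathway genes (yellow) and 22208 protein-coding genes (grey). At the promoter Pax5 was in 7 of 7, 75.0% and 38.2%, and the κB consensus in 85.7%, 20.5% and 4.88%.

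Of these 44, the windows with most Pax5 intervals per length belonged to Tnfrsf13c (9.39 per 100 kb), the receptor of the survival factor BAFF, and to Myd88 (6.60), the adaptor of Toll-like receptors. They were followed by Nfkbie (6.32), an inhibitor like Nfkbia, Bcl10 (6.01), which links antigen receptors to IκB kinases, the receptor gene Cd40 (5.23) and the adaptor gene Traf1 (5.0). Among the 7 genes the same value was 8.45 for Nfkb2, 6.33 for Relb, 3.95 for Rela, 3.65 for Tnfaip3, 3.40 for Nfkb1, 2.31 for Nfkbia and 1.44 for Rel. The median was 2.44 over the 44 genes and 1.17 over all protein-coding genes. These values include the flanks, which held 2 of the 4 Pax5 intervals of Nfkb2 and 2 of the 4 of Relb. Of the 4 of Tnfrsf13c and the 3 of Myd88, 1 each was at the promoter and none elsewhere in the gene body. Traf1 differed from the 7 genes in that none of its 3 Pax5 intervals was at the promoter.

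For each gene the protein-coding gene with the most similar coverage was found from 6 percentile ranks over the 3 libraries, namely the share of promoter and of window covered by each list, with Euclidean distance as the measure of likeness. These were Prpf4b for Rel (distance 3.06), Atp2a3 for Nfkbia (4.23), Ttc32 for Tnfaip3 (5.0), Ubb for Nfkb2 (5.16), Cxxc1 for Relb (5.69), Rnf139 for Rela (7.35) and Fam49b for Nfkb1 (7.67). The median distance to all genes ran from 83.4 for Nfkb1 to 124.0 for Nfkb2. In no case was the most similar gene another of the 7. Few of the genes compared belong to the 7, so this does not measure how alike the 7 are. Each distance is the smallest of many and is small for that reason too.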

How the data were processed

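ChIP-seq interval lists of 1 library each were used for H3K27ac, H3K4me3 and Pax5. Per the submitters' processing notes, the authors used Bowtie 0.12.9 and MACS 1.4.2 on mm9. The score of each H3K27ac and Pax5 interval was deposited by the authors without a stated scale, and the calling settings for these lists are not given in the sources used here. The deposited H3K4me3 list holds other values than a score, namely positions of 25 bp bins alone. A peak caller tells strong from weak places by local read number, so weak intervals depend on its threshold and on depth, which is unknown.

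Genes and transcripts came from GENCODE M1. The reference start is that of the transcript with the longest coding sequence, and a promoter is 1000 bp either side of any annotated start. An overlap of 1 bp counted. Each interval was placed once, at a promoter, else in the gene body, else in a flank of 20 kb. Motifs were searched on both strands of NCBIM37. The promoter overlap and the joining of bins were tested on simulated intervals, while the exon, intron and flank classes were not. Named were all 7 genes, the 6 pathway genes densest in Pax5, pathway genes with no list at the promoter (there were none), the most similar gene outside 100 kb, and neighbours whose promoter holds a flank interval. The genes and lists were chosen with earlier results of these data known. The alternatives were other promoter and flank widths, the midpoint of an interval, 50% of an interval covered, the higher-scoring 50% of a list, and H3K4me3 bins joined only where they touch. Python 3.11.15, numpy 2.4.6, pysam 0.24.0 and matplotlib 3.10.9 were used.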

Additional observations from a re-analysis of the deposited data

How the results depend on the processing

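Of 37 alternative values for 9 counts, 31 stayed within 1.5 times the reported count, and no count of genes with a list at the promoter moved beyond that. With flanks of 50 kb the windows held 126 H3K27ac intervals, 33 H3K4me3 regions and 31 Pax5 intervals. With the higher-scoring 50% of a list they held 34 H3K27ac and 9 Pax5 intervals, 1 gene kept Pax5 in the body outside the promoter, and Nfkb1 and Rela had no Pax5 at the promoter, which left 5 of 7 genes with it. These changes follow from the longer window and the shorter lists. Leaving out intervals at other genes' promoters, and taking the reference start alone for Pax5 in the gene body, were chosen after seeing the data. They gave 60 H3K27ac, 14 H3K4me3 and 17 Pax5 intervals and 3 genes. No paired analysis was possible because only 1 library stands behind a list. With no replicate and unknown depth, a place without an interval is one where none was listed, not one shown to lack the mark or the factor, and scores of close genes have no error to set them apart.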
